A study of Arabidopsis thaliana with 8 samples.

Results

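Salicylic acid signalling and turnover genes were read on ATH1 arrays, which carry short probes for Arabidopsis transcripts summarised as 1 signal per probe set. Of 7 genes, listed by locus with earlier results of these data known, 3 had a probe set naming them alone and were analysed: SAG101 (AT5G14930), UGT76B1 (AT3G11340) and ROXY19 (AT1G28480, named GRX480 in the platform table). SARD1, DLO1, DMR6 and AED1 were not analysed here, so each count of members below covers 3 genes at most and says nothing about these other 4. The 3 probe sets stand among 13484 that name a single locus, covering 13333 loci. Col-0 plants 3 weeks old were grown in a hydroponic system on a base solution with iodine only as a contaminant (control), or with KBr, NaI or KI added at 10 μM, and rosettes (shoot) and roots were taken after 48 h. Each of the 8 arrays held RNA of 3 pooled plants, with 1 array per treatment and tissue, so no replicate spread exists and no p-value was computed. Any order of levels given below therefore describes these arrays, and no neighbours in it can be called different.

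Salicylic acid is a phenolic hormone that accumulates in plants attacked by biotrophic pathogens and switches on systemic resistance. It is held in check by hydroxylation and by transfer of glucose, and its signal passes through the NPR1 receptor family and TGA transcription factors. SAG101 encodes a lipase-like partner of EDS1, a hub of immune signalling upstream of salicylic acid. UGT76B1 glucosylates salicylic acid, isoleucic acid and N-hydroxypipecolic acid and so dampens resistance. ROXY19 encodes a CC-type glutaredoxin that is induced by salicylic acid, binds TGA factors and represses jasmonate defence genes.

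Of these genes, ROXY19 had larger folds of iodide over the other treatments in both tissues than SAG101, and UGT76B1 was higher under all 3 salts in root and dim in shoot. A probe set counted as measured in a tissue when its signal reached 100 on at least 1 of the tissue's arrays, and 14992 probe sets did so in root and 14761 in shoot. It was called when treated and control signals were at least 4-fold apart (a log2 ratio of 2) and the brighter reached 100, and called iodide-specific when NaI and KI were called in the same direction and KBr was not. By that rule 0 of 3 measured genes were called in root and 0 of 2 in shoot, in either direction, against 2.26% of all measured probe sets higher and 0.574% lower in root, and 0.115% and 0.122% in shoot. The median over the measured genes of the mean NaI and KI log2 ratio was 0.81 in root and 0.91 in shoot, beside -0.07 and 0.03 over all measured probe sets. These medians rest on very few genes, which were listed with earlier results of these data known. Their distance from the medians over all measured probe sets is therefore no test of salicylic acid genes. The shoot median lies between SAG101 (0.73) and ROXY19 (1.10), the only genes measured there. The medians of the tissues therefore cover different genes and cannot be set against each other. The root median is the value of UGT76B1, which was as high under KBr, and with KBr as the baseline in place of control the root median was 0.28.

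The root signal of ROXY19 was 65.2 without added salt, 65.4 with KBr, 218 with NaI and 236 with KI. The iodide arrays were high and the other arrays low, with no overlap between the pairs, an arrangement that 25.3% of measured root probe sets shared at some size of difference. NaI was 3.34-fold and KI 3.62-fold above control (log2 ratios of 1.74 and 1.86), under the 4-fold criterion, and KBr had a log2 ratio of 0.00. Both iodide ratios lay inside the central 95% of measured root probe sets, which ran from -1.38 to 2.06 for NaI and from -1.30 to 2.09 for KI. Set against KBr in place of control, the folds were 3.33 for NaI and 3.61 for KI, so KBr, which shares its cation with KI, gave nearly the same reading as the control. At 2-fold, 1 of 3 measured genes was higher in both iodide salts in root, this being ROXY19, beside 5.6% of all measured probe sets.

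In shoot the ROXY19 signal was 75.3 without added salt, 60.4 with KBr, 187 with NaI and 138 with KI. Again both iodide arrays lay above both others, here with NaI above KI, as in 29.8% of measured shoot probe sets whatever the order of the iodide salts. Both tissues at once showed iodide above control and KBr in 9.03% of the 12809 probe sets measured in both. The folds over control were 2.48 for NaI and 1.84 for KI, and those over KBr were 3.10 and 2.29. At 2-fold over control NaI passed and KI did not, beside 2.46% of measured probe sets passing in NaI and 3.33% in KI. The mean iodide log2 ratio was 1.80 in root and 1.10 in shoot, a difference of 0.70 that was not tested. The control signals lay under 100 in both tissues, so these folds start from a dim reading.

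SAG101 was near the same level in both tissues and stood in the same order of treatments in each. In shoot its signal was 140 without added salt, 188 with KBr, 229 with NaI and 236 with KI. In root the corresponding readings were 175, 186, 206 and 246. The KI array was the highest and the control array the lowest in each tissue, with KBr between control and NaI. An order of treatments shared by both tissues, whichever order it was, occurred in 5.46% of the probe sets measured in both.

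The differences for SAG101 were small. Its log2 ratios over control in shoot were 0.42 for KBr, 0.71 for NaI and 0.75 for KI, and in root 0.08, 0.23 and 0.49. In shoot KBr stood 47.8 signal units above control, and NaI and KI stood 89.4 and 95.8 above it. Over KBr, the shoot log2 ratios were 0.29 for NaI and 0.33 for KI. Each shoot ratio over control for NaI and KI lay inside the range that holds the central 95% of all measured probe sets, which ran in shoot from -1.04 to 1.05 for NaI and from -0.97 to 1.15 for KI.

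UGT76B1 in root read 1218 without added salt, 2077 with KBr, 1971 with NaI and 2301 with KI. The control array was the lowest and the 3 salt arrays lay close together, bromide among them. All 3 salts lay above control, by any amount, in 23.3% of measured root probe sets. The folds over control were 1.71 for KBr, 1.62 for NaI and 1.89 for KI, and all 3 salts were at least 1.5-fold above control, as were 1.2% of measured root probe sets. The KBr log2 ratio of 0.77 was past the upper end of the central 95% of probe sets in that comparison (0.68), while those of NaI and KI, 0.69 and 0.92, were inside theirs. Against KBr the log2 ratio was -0.08 for NaI and 0.15 for KI, so on that baseline NaI was below 0. Where ROXY19 had KBr at the control level, UGT76B1 had KBr with the iodide salts.

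In shoot UGT76B1 was listed at 5.55 without added salt, 4.80 with KBr, 2.94 with NaI and 4.92 with KI, near the bottom of the scale, and no ratio is read from these values. Taking the criterion of 100 as the upper limit of the shoot signal, the root was at least 12.2-fold higher in control, 20.8-fold in KBr, 19.7-fold in NaI and 23.0-fold in KI. A root signal of at least 100 with a shoot signal under 10 on all 4 arrays was found for 0.608% of the 16944 probe sets measured in either tissue. SAG101 and ROXY19 differed little between the tissues, with root over shoot folds of 0.897 to 1.25 for SAG101 and 0.866 to 1.70 for ROXY19 over the 4 treatments. The study's methods give different RNA extractions for rosettes and roots, so tissue and extraction cannot be told apart. In these pooled tissues, fewer cells of a type and less RNA per cell cannot be told apart either.

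**Figure D1:**
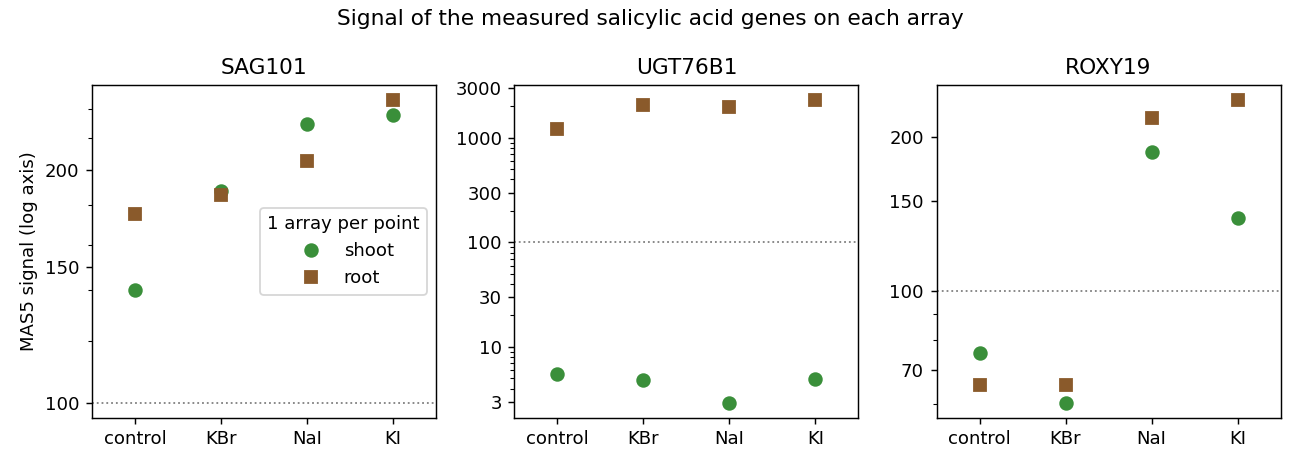
MAS5 signal (log axis) of SAG101, UGT76B1 and ROXY19 on each of the 8 arrays, circles for shoot and squares for root, with the treatment on the horizontal axis and a dotted line at a signal of 100. ROXY19 lies at 60.4 to 75.3 on the control and KBr arrays and at 138 to 236 on the iodide arrays, while UGT76B1 is at 1218 to 2301 in root and at most 5.55 in shoot.

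**Figure D2:**
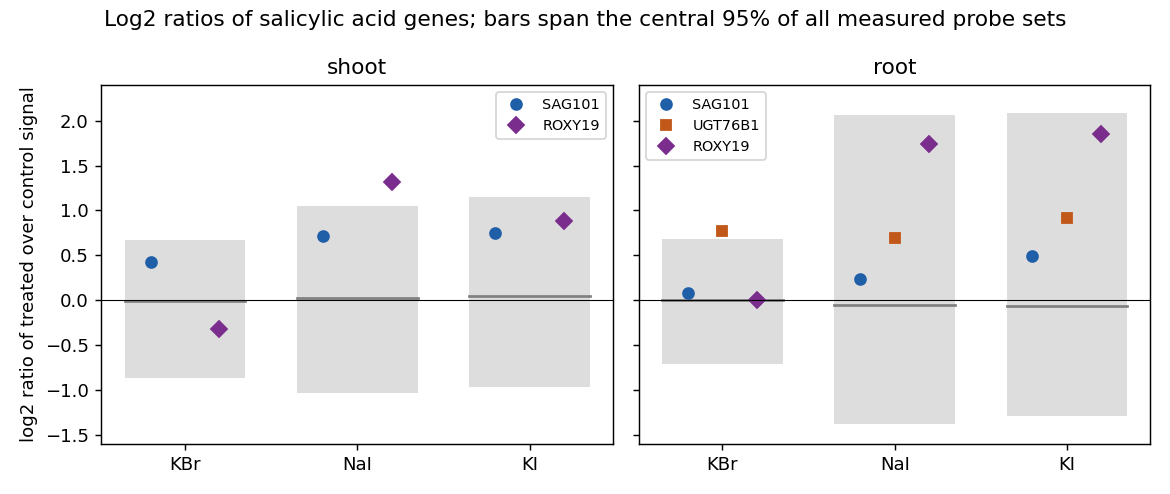
Log2 ratio of treated over control signal (vertical axis) for each salt in shoot and root, 1 point per measured gene. Grey bars span the central 95% of all measured probe sets and the grey line is their median, and ROXY19 in shoot under NaI (1.31) and UGT76B1 in root under KBr (0.77) lie above their bars.

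A list of 47 further genes covered salicylic acid synthesis, regulation, turnover and response and the linked pipecolate pathway, and 7 of them were named alone by a probe set. These 7 are genes of turnover, response and the pipecolate pathway. None of the listed synthesis or regulator genes was read, nor were PR1, PR2 and PR5. The counts and medians below therefore say nothing about them. By the 4-fold rule 0 of 5 measured in root and 0 of 4 in shoot were iodide-specific in either direction. At 2-fold in both iodide salts, 1 was higher in root and 0 in shoot, and 0 were lower in either tissue, beside 5.6% higher and 3.23% lower of all measured probe sets in root and 1.27% and 0.82% in shoot. The list's median iodide log2 ratio was 0.25 in root and 0.14 in shoot.

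The gene past 2-fold was SARD4 (AT5G52810), a reductase of pipecolic acid synthesis, the branch that yields the mobile resistance signal N-hydroxypipecolic acid. Its root signal was 388 without added salt, 533 with KBr, 1205 with NaI and 1041 with KI. In shoot the 4 readings, in the same order of treatments, were 659, 676, 664 and 752. The root iodide arrays lay well above the other arrays, whereas the 4 shoot arrays were close together. The root folds over control were 3.11 for NaI and 2.68 for KI, with 1.37 for KBr, and over KBr the KI log2 ratio was 0.97, under 2-fold.

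AED3 (AT1G09750), an apoplastic aspartyl protease-like protein whose abundance depends on EDS1, was lower on the iodide arrays of both tissues. In shoot it read 6235 without added salt, 5808 with KBr, 3655 with NaI and 3637 with KI. In root it read 1119, 852, 676 and 641.5. The iodide arrays were the lowest in each tissue, as in 8.61% of probe sets measured in both, and the log2 ratios over control of -0.77 and -0.78 in shoot and -0.73 and -0.80 in root for NaI and KI were alike and under 2-fold.

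LLP1 (AT5G03350), a legume lectin-like protein of systemic resistance, was bright in shoot, at 6929 without added salt, 5594 with KBr, 9713 with NaI and 9667 with KI. Its iodide arrays were the brightest, 1.40-fold above control for each salt, and in root its signals were 1.85 to 39.1, under the criterion. Among the turnover enzymes, UGT74F1, which forms salicylic acid glucoside, read 118 in root without added salt, 104 with KBr, 186 with NaI and 176 with KI. Its iodide folds over control, 1.58 and 1.49, were under 2-fold. UGT71C3, which glucosylates methyl salicylate, was at 331, 417, 406 and 379 in root. There all 3 salts lay above control, as in 23.3% of measured root probe sets. The folds were small, at 1.26 for KBr, 1.23 for NaI and 1.15 for KI. GH3.5, an acyl acid amido synthetase acting on auxin and salicylic acid, was at 789, 739.9, 625 and 661 in root and at 168, 119, 231 and 158 in shoot, with no order shared by the tissues. BSMT1, which makes methyl salicylate, was at 2.03 to 49.3 over the 8 arrays and was not measured.

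Relatives of the measured genes were then examined, chosen after the values above had been seen: the 7 other UGT76 glucosyltransferases of the platform table and the 4 other glutaredoxins named there. UGT76D1 (AT2G26480), which glucosylates dihydroxybenzoic acids, the hydroxylation products of salicylic acid, was called iodide-specific and higher in root. Its root signal was 158 without added salt, 188 with KBr, 1040.0 with NaI and 967 with KI. The iodide arrays were 6.59-fold and 6.13-fold above control, and KBr 1.19-fold. Its shoot signals of 10.1 to 48.3 were under the criterion. UGT76D1 was the only called gene among the 3 UGT76 relatives measured in root, beside 2.26% of all measured root probe sets, and UGT76B1 of the same family was not called.

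The other UGT76 genes took other courses. UGT76C2, a cytokinin N-glucosyltransferase, read 287 in shoot without added salt, 336 with KBr, 137 with NaI and 128 with KI. Its root readings were 348, 419, 474 and 427. In shoot its iodide arrays were more than 2-fold below control (log2 ratios of -1.07 and -1.16), as were 0.82% of measured shoot probe sets in both salts, whereas in root they were above control (0.45 and 0.30). Opposite sides of control in the tissues, for both iodide salts, were found in 29.0% of the probe sets measured in both. UGT76C1, of the same function, was, from control to KI, at 127, 93.1, 136 and 85.6 in root and 356, 278, 241 and 291 in shoot. UGT76E11 was at 433, 442, 279 and 316 in shoot and at 8.98 to 27.3 in root. UGT76E1, UGT76E2 and UGT76E12 were under 100 on all 8 arrays.

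Glutaredoxins are a family of small thiol proteins, some of which reduce disulfides with glutathione. Among the glutaredoxins other than ROXY19, iodide-specific calls, in either direction, were made for 0 of 3 measured in root and 0 of 2 in shoot. Among all measured probe sets the shares were 2.26% higher and 0.574% lower in root, and 0.115% and 0.122% in shoot. GRXC1 read 430.3 in root without added salt, 315 with KBr, 713 with NaI and 596 with KI, and its shoot readings were 125, 183, 209 and 172. In root its iodide arrays lay above both others, at 1.66-fold and 1.39-fold over control. GRXC2 was bright in both tissues, at 5766 to 9768. ROXY1 and ROXY2, which are floral CC-type glutaredoxins, reached at most 96.4 and 109.

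**Figure D3:**
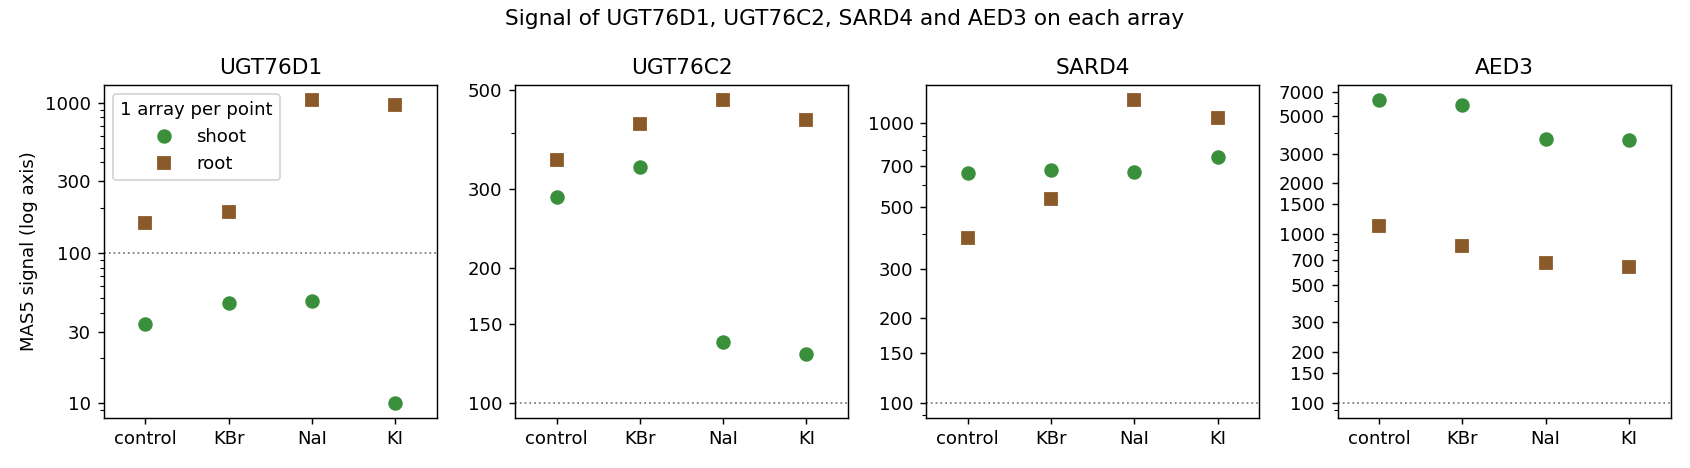
MAS5 signal (log axis) of UGT76D1, UGT76C2, SARD4 and AED3 on each array, circles for shoot and squares for root, with a dotted line at 100. UGT76D1 and SARD4 are higher on the root iodide arrays (1040.0 and 967, 1205 and 1041), UGT76C2 is lower on the shoot iodide arrays (137 and 128), and AED3 is lower on the iodide arrays of both tissues.

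The profiles of ROXY19 and SAG101 were compared over the 8 arrays as log2 signals, floored at 32 and centred within each tissue, so that the tissue difference is left out. Pearson's correlation between them was 0.74, both being read on the same arrays. UGT76B1 was left out because its shoot values were all at the floor. Among 9312 other probe sets naming 1 locus, those most like ROXY19 were AT1G60630, AT5G08560 and AT2G36670, each at 0.99, with AT4G01700 (0.99) and AT5G43150 (0.98) next. AT4G01700, for example, read 811 in root without added salt, 834 with KBr, 2024 with NaI and 1845 with KI, and in shoot 328, 319, 612 and 569.7. AT2G15320 was most like SAG101 (0.98), with shoot signals of 231, 343, 527 and 481. These top values were picked as the highest of 9312 correlations over 8 arrays. How often such values, or the 0.74 above, arise between other genes was not tested.

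The tissues were checked with the 3 of 21 listed tissue markers that were named alone by a probe set. RCA, the Rubisco activase, was at 30287 to 36838 in shoot and 52.4 to 90.3 in root, and PYK10, a root beta-glucosidase, at 7129 to 10000.1 in root and 168 to 364 in shoot. EXPA7, an expansin of root hairs, read 1917 in root without added salt, 1731 with KBr, 582 with NaI and 635 with KI, and in shoot it stayed at 2.22 to 36.4. It was thus lower on the same root arrays on which ROXY19, UGT76D1 and SARD4 were higher, and its part in those differences was not tested. The deposited signals had medians of 168 to 193 per array, and 58.5% to 61.7% of probe sets reached 100.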

How the data were processed

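RNA of rosettes and roots was hybridised to Affymetrix ATH1 arrays, 1 per treatment and tissue. Microarray Suite 5.0 was used by the authors to compute a MAS5 signal per probe set. This deposited signal is a linear intensity, and its mean per array, leaving out the highest and lowest 2%, was 494 to 496. The scaling settings were not found in the labels or methods. The detection p that the study also required was not used. The number of arrays limits the precision, and no SD or interval could be given. Coordinates are left out because no source names a build.

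Log2 ratios of signals, without further normalization, were taken for 22746 probe sets, leaving out 64 Affymetrix controls. Of these, 13513 had 1 gene in the platform table, 503 several and 8730 none. A RefSeq gene table (assembly TAIR10.1) was used for locus names only. The members and lists were chosen with earlier results of these data known. The genes named were all measured members, pathway genes at least 2-fold apart from control in both iodide salts or, up to 4 per role, ranked by mean signal, and the 5 probe sets most like SARD1. SARD1 was not analysed, so likeness was taken to ROXY19, with 5 probe sets named, and to SAG101, with only the closest 1 named. UGT76 and glutaredoxin relatives were added after values were seen. The calling step was checked on simulated arrays, with changes larger than the fold criterion planted in bright probe sets only. That check says nothing about smaller changes or dim signals such as those of ROXY19. Alternatives covered normalization, low signals, the baseline and the calling criteria. Python 3.11.15, numpy 2.4.6, pandas 2.3.3 and matplotlib 3.10.9 were used.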

Additional observations from a re-analysis of the deposited data

Results flagged for a closer look

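Both iodide salts stood on one side of control in root and on the other in shoot for 2 of the 9 members, pathway genes and relatives measured in both tissues, beside 29.0% of all probe sets measured in both, and neither difference was tested. UGT76C2 was below control in shoot and above it in root, with a mean iodide log2 ratio 1.49 higher in root than in shoot. GRXC2 was above control in shoot and below it in root, with a root minus shoot difference of -0.30, and its shoot KI ratio was 0.00.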

How the results depend on the processing

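The count of members called iodide-specific and higher in root went from 0 to 1 when the fold criterion was a log2 ratio of at least 1, the gene being ROXY19. The counts of higher members in shoot and of lower members in either tissue were 0 under every alternative run. Alternatives that only tighten the calling rule could not raise a count of 0, so their agreement was fixed in advance. The median iodide log2 ratio ranged from 0.28 to 0.83 in root and from 0.74 to 0.91 in shoot, and the root value was lowest with KBr as the baseline. Of 85 recomputed ratios of single members 84 kept their sign. The exception was UGT76B1 in root, where the NaI ratio of 0.69 over control was -0.08 over KBr, by the construction of that baseline. No probe set named a member together with other loci, so that alternative changed no value. Setting signals under 50 to 50 changed none either, because every signal of a member in a tissue where it was measured lay above 50. Adding 32 to every signal cannot change the sign of a ratio. The agreement of signs under these alternatives was therefore fixed in advance. UGT76D1 in root was not called at a log2 ratio of 3 and was called under each of the other alternatives run. UGT76C2 in shoot fell short of 2-fold when 32 was added to its signals, at log2 ratios of -0.92 for NaI and -0.99 for KI. No paired analysis was possible because each treatment and tissue has 1 array. Dim signals limit the folds: ROXY19 starts under 100, and adding 32 to its root signals lowered the NaI log2 ratio to 1.36.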
